A study of Homo sapiens with 6 samples.

Results

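Mitochondrial complex I (NADH:ubiquinone oxidoreductase) was followed through the nuclear genes that encode its subunits. The members were the rows of the gene table named NDUFA, NDUFB, NDUFC, NDUFS or NDUFV followed by a number, together with NDUFAB1, whose transcripts included a protein-coding one. This rule picked 38 genes of the 60612 in the table and used no expression value. RNA sequencing was done on 6 poly(A) libraries of ARPE-19, an established human cell line from retinal pigment epithelium (RPE), the cell layer that supports the photoreceptors. In 3 libraries the cells had received miR-204-5p by transfection (labelled as overexpressed), a microRNA that this cell layer makes in abundance. In the other 3 they had received the control named miR-NC, and the labels give no other difference. The design text names oxidative stress and the search for miR-204-5p targets as its purpose. The submitters call the replicates biological, but the labels do not say that each came from a transfection of its own, so p-values measure the spread between these libraries. Mature microRNAs are not held by poly(A) libraries, so the level of miR-204-5p itself was not measured here.

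Complex I is the entry point for electrons from NADH into the respiratory chain and is a known source of superoxide in mitochondria. It is L-shaped: a matrix arm carries the flavin, the iron-sulphur clusters and the quinone site, and a membrane arm pumps protons. Conserved core subunits do the catalysis, and accessory subunits build the shell around them; the hydrophobic core subunits of the membrane arm are encoded by mitochondrial DNA and all other subunits by the nucleus. RPE cells rely heavily on mitochondrial oxidation.

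The transfected microRNA is shown first, since its seed (bases 2 to 8, in capitals) is the part that pairs with target messenger RNAs. The sequence is that of RefSeq for GRCh38.p14, at chr9:70810031-70810052 on the minus strand.
hsa-miR-204-5p: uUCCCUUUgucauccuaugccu

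Sites complementary to that seed were rare in the 3' untranslated regions (UTRs) of the subunit genes. In the longest UTR that GENCODE 29 annotates for each gene, none of the 38 members held an 8mer site (AAAGGGAA), against 8.65% of the 10834 tested genes that have a UTR. A 7mer-m8 site (AAAGGGA) stood in 2 members, NDUFA5 and NDUFB5, which is 5.26% of members against 18.7% of tested genes for an 8mer or 7mer-m8. With the 7mer-A1 class (AAGGGAA) added, which NDUFA9 and NDUFV3 hold, the shares were 10.53% of members and 27.4% of tested genes. The UTRs of the members were shorter, with a median of 554.5 bases against 1314 bases, and a shorter UTR has fewer places for a match; the longest annotated UTR may belong to a minor transcript. The windows below show the 7mer-m8 matches in capitals, read 5' to 3' on the strand of the gene in GRCh38. They lie at chr7:123538900-123538906 and chr7:123537459-123537465 on the minus strand for NDUFA5, and at chr3:179625952-179625958 on the plus strand for NDUFB5.
NDUFA5, first site: tatcttttttaAAAGGGAgatgacaatata
NDUFA5, second site: aaggtttcagaAAAGGGAcaatagacctat
NDUFB5: acacaggttgcAAAGGGAttgctggattgt
None of the genes with these matches passed the test, and their estimates were positive: the log2 fold change was 0.14 for NDUFA5 (SE 0.20, unadjusted p = 0.520, limma) and 0.09 for NDUFB5 (SE 0.17, unadjusted p = 0.589, limma). For the 7mer-A1 genes it was 0.10 for NDUFA9 (SE 0.15, unadjusted p = 0.519, limma) and 0.01 for NDUFV3 (SE 0.25, unadjusted p = 0.961, limma).

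Every subunit gene was transcribed in every library, but at widely different levels. Levels are given in FPKM, fragments per kilobase scaled by library size, which allows genes of different length to be compared. All 38 members were at or above 0.5 FPKM in all 6 libraries, with single values from 1.88 to 533.9 FPKM, and none was lost to the filter on low values. By mean over the 6 libraries, 4 members were at 100 FPKM or more, 27 lay from 10 to under 100, and 7 were under 10. The order hardly differed between libraries: Spearman's rho of the 38 levels was 0.919 to 0.985 over all pairs of libraries, a description across genes. The highest mean level was 171-fold the lowest. Mean FPKM tended to be lower in members with a longer principal transcript (Spearman's rho -0.53), again a description across genes.

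NDUFS5, an accessory subunit on the intermembrane side of the membrane arm, had the highest level. It was at 467, 350 and 534 FPKM in the miR-204-5p libraries (replicates 1, 2 and 3, the order used throughout), against 370, 359 and 498 FPKM in the miR-NC libraries. Both groups spanned nearly the same range, and the log2 fold change was 0.13 (SE 0.23, 95% limits -0.41 to 0.68). NDUFB7, NDUFA1 and NDUFB11 followed, with means of 249 ± 84.3, 194 ± 32.6 and 128 ± 39.3 FPKM with miR-204-5p, against 211 ± 60.4, 182 ± 31.6 and 112 ± 44.4 FPKM with miR-NC (SD, n = 3 each). These 4 genes alone made up 49.7% of the summed FPKM of all members. At the other end, NDUFA5, an accessory subunit of the matrix arm, was at 2.02, 3.25 and 2.81 FPKM with miR-204-5p, against 2.37, 1.88 and 2.79 FPKM with miR-NC. The lowest and the highest value of NDUFA5 overlapped between the groups.

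**Figure D1:**
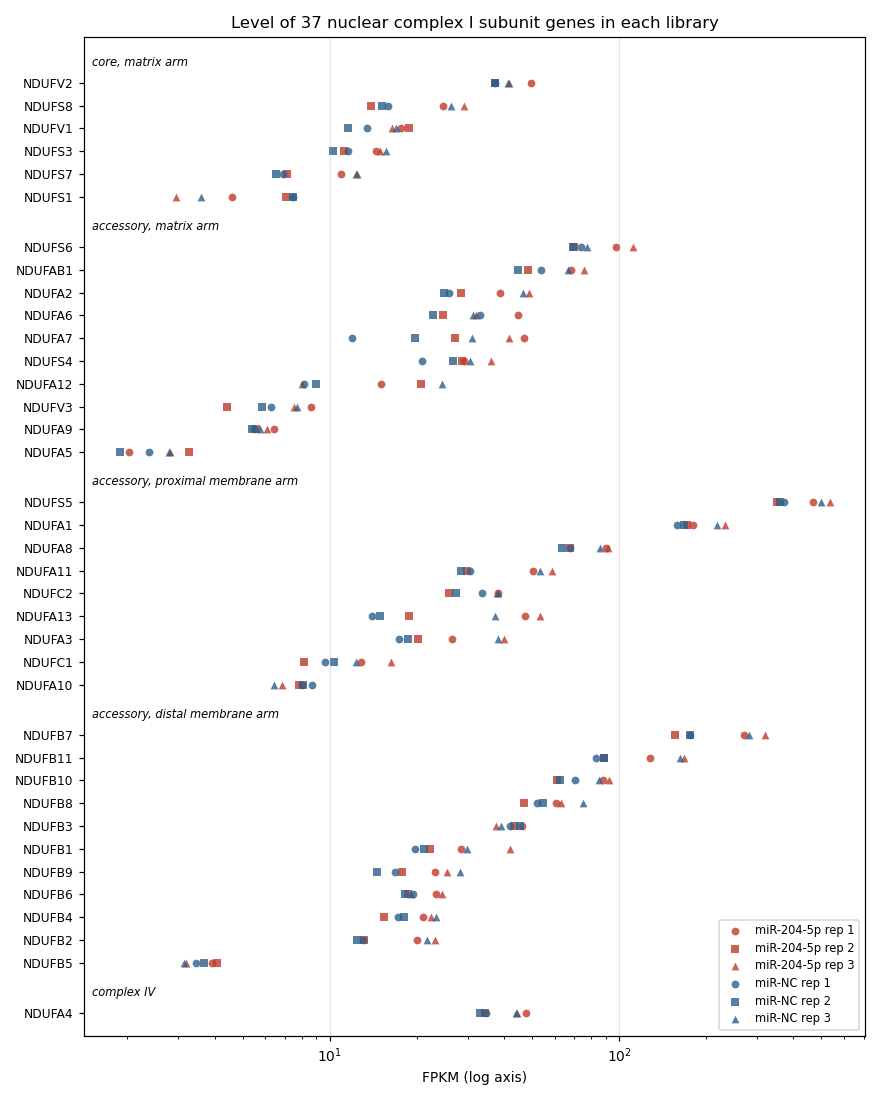
FPKM (log axis) of 37 subunit genes, grouped by place in the complex, in the 3 miR-204-5p libraries (red) and the 3 miR-NC libraries (blue), with a marker shape for each replicate number. NDUFS5 stands highest at 350 to 534 FPKM and NDUFA5 lowest at 1.88 to 3.25 FPKM, and for nearly all genes the 2 colours mix.

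No subunit gene passed the test. Log2 fold changes are miR-204-5p over miR-NC on log2(FPKM + 1), a scale that understates the change of low genes. With limma and Benjamini-Hochberg adjustment over all 13151 genes tested, 0 of 38 members were called at an adjusted p under 0.05, and the percentage called among all genes tested was 0% as well; the adjusted p of every member was 0.9999. At an unadjusted p under 0.05 stood 1 member, NDUFA7, against 1.16% of all tested genes in that direction. The sign was nevertheless lopsided: 35 of 38 members had a positive log2 fold change and 3 a negative one, with a median of 0.18, beside 46.9% positive and a median of -0.02 over all tested genes. The 95% limits of 37 members included 0. With quantile normalization 31 members were positive, and with median-of-ratios scaling 35. The median moved with single libraries, being 0.32 when miR-204-5p replicate 2 was left out and 0.09 when its replicate 3 was, and 0.11, 0.09 and 0.29 when miR-NC replicate 1, 2 or 3 was left out. In bulk RNA a change in RNA per cell and a change in the makeup of the cells cannot be told apart.

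**Figure D2:**
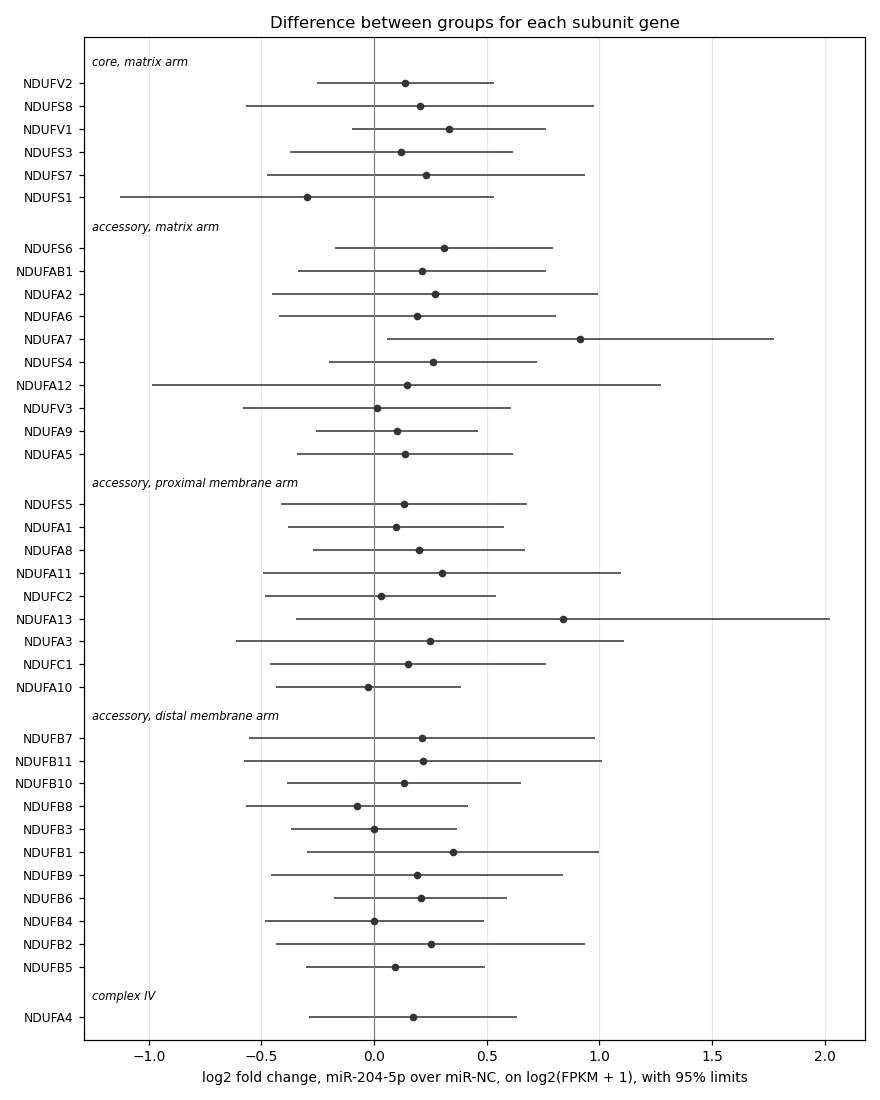
Log2 fold change, miR-204-5p over miR-NC, on log2(FPKM + 1), for 37 subunit genes; points are the limma estimates and lines their 95% limits. Of the 37 points 34 lie right of 0, and the limits of all genes except NDUFA7 cross 0.

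Among the core subunits of the matrix arm, 6 of 7 had a positive log2 fold change, and none was called. NDUFV1, which binds NADH and the flavin, had 17.7, 18.8 and 16.5 FPKM with miR-204-5p, against 13.4, 11.5 and 16.9 FPKM with miR-NC. Its groups overlapped through miR-NC replicate 3, and the log2 fold change was 0.33 (SE 0.18, 95% limits -0.10 to 0.76, unadjusted p = 0.110, limma). NDUFS1, the largest core subunit and a carrier of iron-sulphur clusters, had the opposite sign, with 4.58, 7.05 and 2.93 FPKM with miR-204-5p, against 7.46, 7.47 and 3.59 FPKM with miR-NC. Replicate 3 was the lowest library of NDUFS1 in both groups, and the log2 fold change was -0.30 (SE 0.35, 95% limits -1.13 to 0.53, unadjusted p = 0.422, limma). NDUFV2, NDUFS3, NDUFS7 and NDUFS8, further core subunits of this arm, had log2 fold changes of 0.14, 0.12, 0.23 and 0.20. NDUFS3 shares 721 of its 3670 exonic bases, counted over all annotated transcripts, with PTPMT1 on the same strand, a mitochondrial phosphatase gene at 18.2 to 25.4 FPKM. The principal transcripts have only 958 bases for NDUFS3 and 768 bases for PTPMT1. The value of NDUFS3 is therefore uncertain; on the sum of both rows it was 0.20 (SE 0.17, unadjusted p = 0.290, limma).

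All 10 accessory subunits of the matrix arm were positive, with a median log2 fold change of 0.20. When 1 library was left out, 8 to 10 were positive: the median was 0.36 without miR-204-5p replicate 2, 0.13 without its replicate 3, 0.08 without miR-NC replicate 2 and 0.35 without its replicate 3. NDUFA7 had the smallest p of all members: 46.9, 27.2 and 41.5 FPKM with miR-204-5p, against 11.9, 19.7 and 31.0 FPKM with miR-NC. Replicate 2 of miR-204-5p lay below replicate 3 of miR-NC, so the groups overlapped; the log2 fold change was 0.91 (SE 0.36, 95% limits 0.06 to 1.77, unadjusted p = 0.0400, limma). NDUFAB1, the mitochondrial acyl carrier protein, was at 68.2, 48.6 and 75.6 FPKM with miR-204-5p, against 53.6, 44.7 and 66.5 FPKM with miR-NC. In both groups its replicate 2 was lowest and replicate 3 highest, and the log2 fold change was 0.21 (SE 0.23, unadjusted p = 0.388, limma). NDUFS4 and NDUFS6, which join the matrix arm late in assembly, averaged 31.3 ± 4.18 and 93.1 ± 21.0 FPKM with miR-204-5p, against 26.1 ± 4.89 and 73.5 ± 4.21 FPKM with miR-NC (SD, n = 3 each). NDUFA12 varied more over the 6 libraries than any member except NDUFA7 and NDUFA13: 15.1, 20.7 and 8.04 FPKM with miR-204-5p, against 8.15, 8.99 and 24.4 FPKM with miR-NC. Its single high miR-NC library and its single low miR-204-5p library share the number 3. The remaining members here, NDUFA2, NDUFA5, NDUFA6, NDUFA9 and NDUFV3, had log2 fold changes from 0.01 to 0.27.

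In the proximal membrane arm, 8 of 9 accessory subunits were positive, with a median of 0.15. NDUFA13, also known as GRIM-19, was at 47.4, 18.8 and 53.2 FPKM with miR-204-5p, against 13.96, 14.94 and 37.2 FPKM with miR-NC. The groups overlapped, since miR-204-5p replicate 2 lay below miR-NC replicate 3, and the log2 fold change of 0.84 had an SE of 0.50 (95% limits -0.35 to 2.02, unadjusted p = 0.138, limma). NDUFA10, a member of the nucleoside kinase family in its fold, was the negative one, with 8.00, 7.80 and 6.86 FPKM with miR-204-5p, against 8.67, 8.12 and 6.44 FPKM with miR-NC. For NDUFA10 this made a log2 fold change of -0.02 (SE 0.17, 95% limits -0.43 to 0.39, unadjusted p = 0.891, limma). The other members, NDUFA1, NDUFA3, NDUFA8, NDUFA11, NDUFC1, NDUFC2 and NDUFS5, ranged from 0.03 to 0.30. Without miR-204-5p replicate 3, 4 of these 9 were positive, with a median of -0.00. The median was 0.34 without miR-204-5p replicate 2, and 0.07, 0.10 and 0.28 when miR-NC replicate 1, 2 or 3 was left out.

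Of the distal membrane arm, 10 of 11 accessory subunits were positive, with a median of 0.19. It was 0.12, 0.32 and 0.08 when miR-204-5p replicate 1, 2 or 3 was left out, and 0.10 and 0.09 without miR-NC replicate 1 or 2. NDUFB8, whose protein is widely used as an antibody marker of assembled complex I, was the exception, at 60.6, 47.0 and 63.1 FPKM with miR-204-5p, against 52.0, 54.5 and 74.8 FPKM with miR-NC. The log2 fold change of NDUFB8 was -0.08 (SE 0.21, 95% limits -0.57 to 0.41, unadjusted p = 0.721, limma). NDUFB1 had the largest value in this arm, 0.35 (SE 0.27, unadjusted p = 0.241, limma), with means of 30.9 ± 10.1 FPKM with miR-204-5p and 23.6 ± 5.41 FPKM with miR-NC (SD, n = 3 each). NDUFB3 and NDUFB4 lay closest to 0, both at 0.00, with 95% limits of -0.37 to 0.37 and -0.49 to 0.49. NDUFB2, NDUFB5, NDUFB6, NDUFB7, NDUFB9, NDUFB10 and NDUFB11 ranged from 0.09 to 0.25. NDUFA4 carries a complex I name but is now assigned to complex IV, cytochrome c oxidase. It was at 47.6, 34.4 and 44.5 FPKM with miR-204-5p, against 34.7, 33.1 and 44.0 FPKM with miR-NC, a log2 fold change of 0.17 (SE 0.19, unadjusted p = 0.405, limma). Without NDUFA4, 34 of 37 members were positive, with a median of 0.19.

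The subunit genes went up and down together from library to library, and this shared movement was larger than the distance between the groups. The deviation of a gene in a library is its log2(FPKM + 1) minus its mean over the 6 libraries. The median deviation of the 38 members was 0.17, -0.23 and 0.27 in the miR-204-5p libraries, against -0.18, -0.27 and 0.19 in the miR-NC libraries. Members above their own mean numbered 35, 10 and 32 of 38 with miR-204-5p, against 4, 4 and 30 with miR-NC. One library of each group thus stood apart from its 2 fellows: miR-204-5p replicate 2 sat with the low libraries and miR-NC replicate 3 with the high ones. By replicate number, the median was low in both groups in replicate 2 (-0.23 and -0.27) and high in both in replicate 3 (0.27 and 0.19). Only in replicate 1 did the groups differ in sign, at 0.17 with miR-204-5p against -0.18 with miR-NC. Within the miR-204-5p group, replicate 2 was the lowest library for 30 members, and within the miR-NC group, replicate 3 was the highest for 31. The highest to lowest ratio inside a group exceeded the ratio of the group means for 35 members in the miR-204-5p group and for 34 in the miR-NC group. A range over 3 libraries usually exceeds a difference of means even where genes vary independently. These counts therefore do not measure the shared movement, and the share over all tested genes was not counted. Over all tested genes the median deviations were smaller and ordered otherwise, at 0.01, 0.08 and -0.09 with miR-204-5p, against 0.09, 0.04 and -0.10 with miR-NC. Summed over the members, the level was 2182, 1600 and 2442 FPKM with miR-204-5p, against 1611, 1583 and 2257 FPKM with miR-NC.

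**Figure D3:**
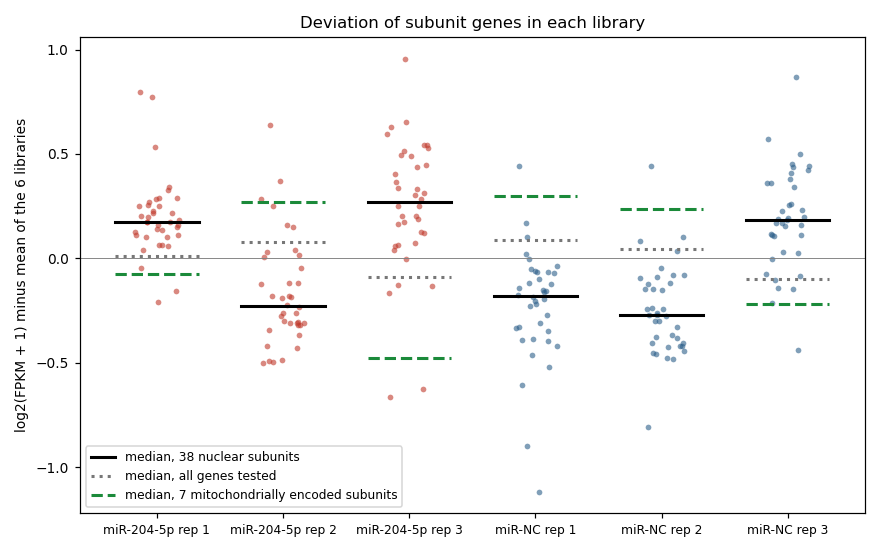
Deviation of each subunit gene (points) from its own mean over the 6 libraries, on log2(FPKM + 1), with the 3 miR-204-5p libraries (red) left of the 3 miR-NC libraries (blue). Black lines are medians of the 38 nuclear subunits, at 0.17, -0.23 and 0.27 with miR-204-5p against -0.18, -0.27 and 0.19 with miR-NC; green dashed lines are medians of the 7 mitochondrially encoded subunits and grey dotted lines those of all tested genes.

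The partner subunits encoded by mitochondrial DNA had the opposite signs. Their median deviation was -0.08, 0.27 and -0.48 with miR-204-5p, against 0.30, 0.24 and -0.22 with miR-NC, opposite in sign to the nuclear subunits in all 6 libraries. This pattern was not particular to them. All tested genes had the same signs except in miR-204-5p replicate 1. So did the TCA cycle enzymes, at 0.10, 0.16 and -0.25 with miR-204-5p, against 0.17, 0.06 and -0.18 with miR-NC. The regulators of mitochondrial biogenesis were at -0.04, 0.13 and -0.17 with miR-204-5p, against 0.15, -0.01 and -0.21 with miR-NC. MT-ND5, a proton-pumping subunit at the tip of the membrane arm, had 944, 1717 and 640 FPKM with miR-204-5p, against 1657, 1707 and 768 FPKM with miR-NC. MT-ND4, the neighbouring pump, had 4907, 6771 and 3856 FPKM with miR-204-5p, against 6786, 6877 and 4753 FPKM with miR-NC. For both genes miR-204-5p replicate 2 stood beside the first and second miR-NC libraries, and replicate 3 was the lowest of its group. The log2 fold changes were -0.36 for MT-ND5 (SE 0.45, unadjusted p = 0.460, limma) and -0.26 for MT-ND4 (SE 0.29, unadjusted p = 0.396, limma). All 7 genes were negative under the deposited, median-of-ratios and quantile scalings, and 0 were called. As deposited they ranged from -0.57 to -0.03 with a median of -0.18, which was -0.16 with median-of-ratios scaling, -0.23 with quantile normalization and -0.28 with each library centred by transcript length. Leaving out a library gave medians of -0.36 without miR-204-5p replicate 2, -0.02 without its replicate 3, -0.10 without miR-NC replicate 1 and -0.36 without its replicate 3, and 6 of 7 were negative in the cases of miR-204-5p replicates 2 and 3 and miR-NC replicate 3. The 7 genes together took 6.77%, 8.78% and 5.03% of the summed FPKM with miR-204-5p, against 8.89%, 8.67% and 6.40% with miR-NC.

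Other genes of the pathway showed no call either. Of the 19 assembly factors, which chaperone modules of complex I and are not part of the finished enzyme, 14 were positive, with a median of 0.13 and a range of -0.49 to 0.51; leaving out miR-204-5p replicate 1 gave a median of 0.06, and leaving out miR-NC replicate 2 gave 0.07. NDUFAF4 had 6.26, 4.46 and 6.91 FPKM with miR-204-5p, against 3.95, 2.75 and 4.80 FPKM with miR-NC, a log2 fold change of 0.51 (SE 0.24, unadjusted p = 0.0673, limma). NDUFAF2, which binds a late assembly intermediate, had 34.3, 25.7 and 33.7 FPKM with miR-204-5p, against 25.6, 22.1 and 28.3 FPKM with miR-NC, a log2 fold change of 0.29 (SE 0.18, unadjusted p = 0.164, limma). In each of these 2 genes a library of miR-204-5p, replicate 2, lay below the highest miR-NC library. Regulators of mitochondrial biogenesis were split, 5 positive and 7 negative among the 12 of 15 that passed the filter, with a median of -0.03 that ran from -0.08 without miR-204-5p replicate 2 to 0.05 without its replicate 3. PPRC1, a coactivator of the PGC-1 family, did not overlap between groups: 7.46, 5.19 and 6.02 FPKM with miR-204-5p, against 5.16, 2.91 and 4.02 FPKM with miR-NC. The log2 fold change of PPRC1 was 0.53 (SE 0.23, 95% limits -0.01 to 1.08, unadjusted p = 0.0522, limma). GABPA, a DNA-binding ETS factor of mitochondrial genes, had 0.560, 1.95 and 1.25 FPKM with miR-204-5p, against 2.09, 2.68 and 1.37 FPKM with miR-NC, a log2 fold change of -0.46 (SE 0.28, unadjusted p = 0.147, limma). TWNK, the mitochondrial DNA helicase, was the other regulator without overlap, at 0.20 (SE 0.15, unadjusted p = 0.233, limma). Of all tested genes, 3.77% were higher with miR-204-5p without overlap. PPARGC1A, the coactivator PGC-1 alpha, was below the filter. The 14 enzymes of the TCA cycle, which feeds complex I with NADH, had 6 positive and 8 negative values and a median of -0.03; without miR-204-5p replicate 3 it was 0.05, with 11 positive, and without miR-NC replicate 3 it was -0.10. FH, fumarase, had 47.0, 42.5 and 36.0 FPKM with miR-204-5p, against 41.2, 36.5 and 29.2 FPKM with miR-NC, a log2 fold change of 0.23 (SE 0.19, unadjusted p = 0.265, limma). IDH3A, a subunit of isocitrate dehydrogenase, had 1.52, 2.86 and 0.975 FPKM with miR-204-5p, against 2.54, 2.52 and 2.34 FPKM with miR-NC, a log2 fold change of -0.37 (SE 0.26, unadjusted p = 0.193, limma).

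Subunit genes are short, and transcript length moved with the library deviations across the whole transcriptome. The principal transcript of a member had a median length of 960.5 bases, from 528 to 11819 bases, against 2687 bases for the tested genes. Over all tested genes, Spearman's rho between length and deviation was -0.28, 0.38 and -0.36 with miR-204-5p, against 0.35, 0.38 and -0.34 with miR-NC: short genes stood high in the same 3 libraries in which the subunits stood high. These are descriptions across genes of 1 library each, which share its depth and RNA. The 21 members under 1000 bases had median deviations of 0.17, -0.26 and 0.33 with miR-204-5p, against -0.27, -0.30 and 0.25 with miR-NC. The 8 members of 2000 bases or more had smaller ones, 0.15, -0.01 and 0.07 with miR-204-5p, against -0.06, -0.12 and 0.05 with miR-NC. In the same order, all tested genes of the length class from 730 to 1272 bases had median deviations of 0.13, -0.11 and 0.13 with miR-204-5p, against -0.09, -0.14 and 0.08 with miR-NC. The median log2 fold change was 0.20 for the short members and 0.07 for the long ones. After each library was centred within 10 length classes, an alternative chosen after seeing the data, the median of the members was 0.11, with 32 of 38 positive, and that of all tested genes was -0.00. What sets the length relation in these libraries was not tested.

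**Figure D4:**
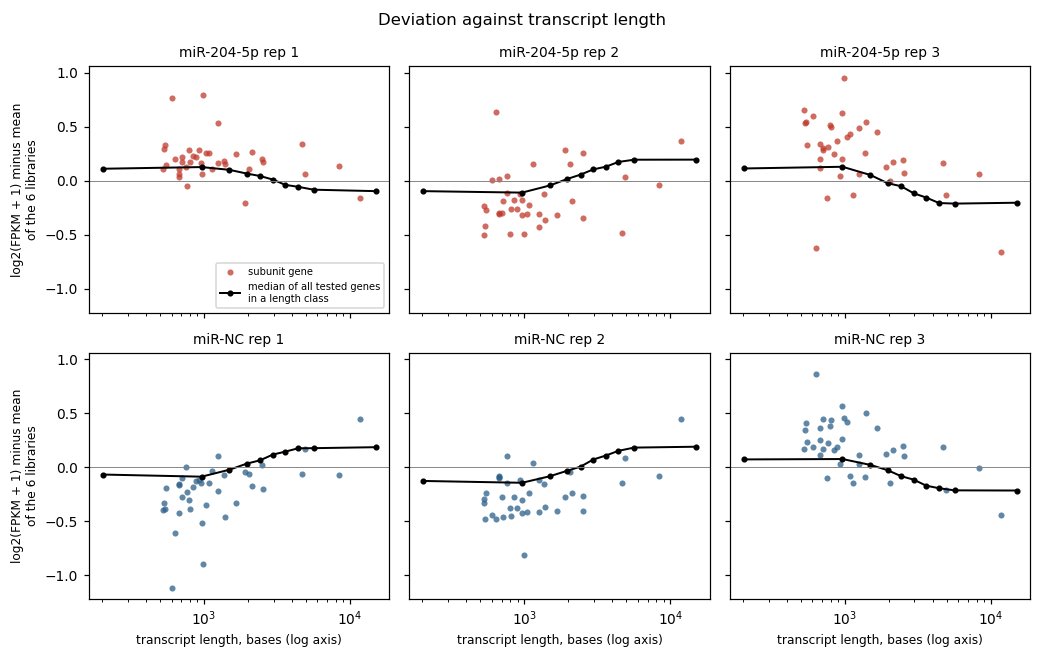
Deviation on log2(FPKM + 1) against transcript length (log axis) in each library, with the miR-204-5p libraries above the miR-NC libraries; points are subunit genes and black lines the medians of all tested genes in 10 length classes. The black line falls with length in miR-204-5p replicates 1 and 3 and miR-NC replicate 3 and climbs in the other 3 libraries, and most subunits lie at the short end.

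NDUFA7 and NDUFA13, the genes with the highest log2 fold changes, each share exons on the same strand with another protein-coding gene that has a row of its own. The row AC010323 overlaps 456 of the 1413 exonic bases of NDUFA7 on chromosome 19, and had 2.46, 4.43 and 8.70 FPKM with miR-204-5p, against 35.9, 11.1 and 9.28 FPKM with miR-NC. Exonic bases are counted over all annotated transcripts of a gene, while the principal transcripts have only 601 bases for NDUFA7 and 580 bases for AC010323. AC010323 was lower in every miR-204-5p library than in every miR-NC library (log2 fold change -1.55, SE 0.57, unadjusted p = 0.0291, limma), and its sign was opposite to that of NDUFA7. The groups were parted narrowly, at 8.70 against 9.28 FPKM in replicate 3. Of the 13151 tested genes, 286 were lower without overlap and 121 were lower at an unadjusted p under 0.05 (limma), while 0 were called. The sums of NDUFA7 and AC010323 were 49.4, 31.6 and 50.2 FPKM with miR-204-5p, against 47.9, 30.8 and 40.3 FPKM with miR-NC. On the summed row the log2 fold change was 0.13 (SE 0.25, unadjusted p = 0.62, limma). The row AC011448 overlaps 437 of the 2708 exonic bases of NDUFA13, also on chromosome 19, and had 0.62, 34.7 and 4.41 FPKM with miR-204-5p, against 24.7, 24.7 and 25.3 FPKM with miR-NC. Here the principal transcripts have 991 bases for NDUFA13 and 1100 bases for AC011448. AC011448 was high where NDUFA13 was low in the miR-204-5p libraries. With both rows summed, the levels were 48.1, 53.5 and 57.6 FPKM with miR-204-5p, against 38.7, 39.7 and 62.5 FPKM with miR-NC, and the log2 fold change was 0.20 (SE 0.22, unadjusted p = 0.390, limma). Fragments from the shared exons can be given to either row, so the single values of NDUFA7 and NDUFA13 are uncertain. Of the same-strand pairs summed, the others were NDUFS3 with PTPMT1, given above, and NDUFB2 with ADCK2, which share 64 bases and whose sum had 0.18 (SE 0.24, unadjusted p = 0.471, limma) against 0.25 for NDUFB2 alone.

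**Figure D5:**
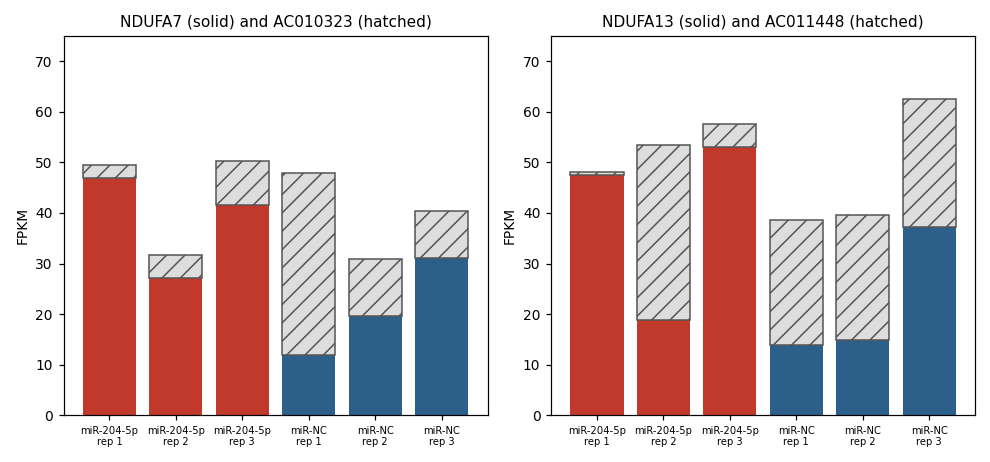
FPKM of NDUFA7 with AC010323 (left) and NDUFA13 with AC011448 (right), stacked, in the 3 miR-204-5p libraries (red) and the 3 miR-NC libraries (blue). Solid bars are the subunit and hatched bars the overlapping row. The summed bars of NDUFA7 are 31.6 to 50.2 FPKM with miR-204-5p and 30.8 to 47.9 FPKM with miR-NC, although the solid parts differ.

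Pseudogene copies and exons on the opposite strand were counted as well. Pseudogenes named after members had 55 rows for 18 members, and 41 of these rows were at 0 in every library. NDUFA5 was the exception, since its pseudogenes reached up to 87.7% of its own FPKM in a library; NDUFA5P11 alone was at 1.77, 0.908 and 0.36 FPKM with miR-204-5p, against 0.786, 0.973 and 0.323 FPKM with miR-NC. For all other members the pseudogenes reached at most 7.77%, so the low level of NDUFA5 is the most uncertain in this respect. On the opposite strand, exons of RNF113A cover 341 bases of NDUFA1, those of RBM10 cover 636 bases of NDUFB11, and those of RPS28 cover 89 bases of NDUFA7. These genes were at 12.8 to 18.8, 17.4 to 23.4 and 160 to 318 FPKM, in that order. Other overlaps include 157 bases of NDUFA3 with TFPT (16.55 to 35.8 FPKM) and 70 bases of NDUFA2 with IK (18.3 to 23.6 FPKM). EEF1B2, at 172 to 208 FPKM, covers 19 bases of NDUFS1. The libraries were strand-marked with dUTP, but no source used here gives whether the counting used the strand.

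The members are scattered over 18 chromosomes, with 6 on chromosome 19 and 2 on the X chromosome. Their promoters were searched from 250 bases before to 50 bases after the start in the RefSeq promoter table (GRCh38.p14), where 32 of 38 members matched. The letters GCATGCGC, a core of the site of NRF1, a main factor of nuclear respiratory genes, were found on either strand in 5 members, or 15.6%, against 3.05% of 35116 promoters. The letters AAGATGGCG of YY1 also stood in 5 members, 15.6% against 1.75%. CCGGAAG, a core of ETS factors, stood in 5 as well, 15.6% against 10.3%, and GGGCGG of Sp1 in 20, 62.5% against 45.0%. None of the motifs is part of another, and a match describes letters only. The 35116 promoters are all windows of the full 300 bases and were not limited to tested genes. The shares therefore do not tell whether the members differ from other expressed genes. NDUFS7 and NDUFA6 were the members with both the NRF1 and the YY1 letters, and NDUFA7, the gene with the smallest p, has the YY1 letters. In these promoters, shown 5' to 3' on the strand of the gene, capitals mark the NRF1, YY1 and Sp1 matches. They lie at chr19:1383657-1383956 on the plus strand for NDUFS7, at chr22:42090723-42091022 on the minus strand for NDUFA6 and at chr19:8321326-8321625 on the minus strand for NDUFA7.
NDUFS7: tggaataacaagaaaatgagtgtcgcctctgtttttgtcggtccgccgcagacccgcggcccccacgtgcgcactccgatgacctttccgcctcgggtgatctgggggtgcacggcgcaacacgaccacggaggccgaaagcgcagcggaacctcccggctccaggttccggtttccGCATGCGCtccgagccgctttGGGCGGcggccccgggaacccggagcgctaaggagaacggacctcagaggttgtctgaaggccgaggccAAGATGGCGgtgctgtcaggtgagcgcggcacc
NDUFA6: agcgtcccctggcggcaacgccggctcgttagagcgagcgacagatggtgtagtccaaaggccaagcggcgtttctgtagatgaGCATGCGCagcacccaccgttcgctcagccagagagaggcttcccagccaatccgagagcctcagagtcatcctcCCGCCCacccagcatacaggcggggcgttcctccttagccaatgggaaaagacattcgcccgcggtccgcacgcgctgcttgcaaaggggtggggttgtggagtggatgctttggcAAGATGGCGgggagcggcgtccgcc
NDUFA7: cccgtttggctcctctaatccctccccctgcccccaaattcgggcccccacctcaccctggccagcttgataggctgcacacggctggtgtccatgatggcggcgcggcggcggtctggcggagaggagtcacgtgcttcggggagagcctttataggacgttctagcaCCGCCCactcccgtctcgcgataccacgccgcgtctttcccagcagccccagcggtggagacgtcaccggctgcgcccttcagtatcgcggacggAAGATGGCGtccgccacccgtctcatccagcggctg
In each of the 3 the YY1 letters fall close to the start of the transcript. NDUFS7, a core subunit at the quinone site, had a log2 fold change of 0.23 (SE 0.30, unadjusted p = 0.467, limma), and NDUFA6, a LYR-motif subunit that anchors the acyl carrier protein, 0.19 (SE 0.26, unadjusted p = 0.483, limma). Neither value lay apart from the median of the members, 0.18.

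For the libraries as a whole, depth was about 19000000 to 21800000 read pairs with miR-204-5p and 20800000 to 23200000 with miR-NC, estimated roughly from the steps between low FPKM values. Of 18 RPE markers 8 were at 0.5 FPKM or more in at least 3 libraries. KRT8, KRT18, OTX2, RLBP1 and BEST1 were present, while RPE65, TTR, TYR, TYRP1 and DCT were at or near 0. Summed RPE markers spanned 347 to 440 FPKM with miR-204-5p and 361 to 407 FPKM with miR-NC. These sums came mostly from KRT18 (194 to 249 FPKM) and KRT8 (124 to 164 FPKM). No other RPE marker was above the 9.70 FPKM of OTX2 in miR-NC replicate 1. Fibroblast markers reached the same level in 4 of 10 genes (sums, mostly from S100A4, of 22.2 to 29.9 FPKM with miR-204-5p and 21.7 to 32.7 FPKM with miR-NC), photoreceptor markers in 1 of 8, immune markers in 2 of 6 and endothelial markers in 0 of 5. Library miR-204-5p replicate 3, in which the subunits stood highest, held 8.28% of its FPKM in 24 rows of ribosomal RNA precursors, against 0.356% and 0.462% in the first and second miR-204-5p libraries and 0.316% to 0.454% in the miR-NC libraries. It also held 0.766% in 5 RNAs without poly(A) tails. Their share was 0.0313% and 0.0402% in the first and second miR-204-5p libraries and 0.0291% to 0.0479% in the miR-NC libraries. Library miR-204-5p replicate 3 also had the highest values of the fibroblast markers COL1A2 (0.948 FPKM, at most 0.00441 elsewhere), COL3A1 (0.629 FPKM, at most 0.112), LUM (0.505 FPKM, at most 0.0357) and DCN (0.165 FPKM, at most 0.0174). Of the same list, COL1A1 (2.14 FPKM) and PDGFRA (0.0687 FPKM) were also highest there, while S100A4, FAP, PDGFRB and THY1 were not. PDGFRB had its lowest value there, 0.989 FPKM, and S100A4 had 20.4 FPKM against 28.2 FPKM in miR-NC replicate 3. The part of the ribosomal RNAs, the RNAs without poly(A) tails and the fibroblast marker RNAs in the subunit levels was not tested. Without miR-204-5p replicate 3, 27 of 38 members were positive.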

How the data were processed

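Libraries of poly(A) RNA were marked for strand with dUTP and sequenced from both ends for 150 bases, per the labels' protocols. The deposited FPKM values (1 column per library, 0.0001 in place of 0) were read with 0.0001 as 0. Beside them, the authors deposited for each gene a fold ratio, its log2 value, and p-values and q-values whose tool no source used here names. In the authors' deposited table the lowest p of a subunit was 0.0572 (NDUFA7), and every q of a subunit was 1. The tools listed, per the submitters' processing notes, were StringTie 1.3.4d, HISAT2 2.0.4, cutadapt 1.9, DESeq2 and edgeR, with the build GRCh38; no source used here gives their roles, their order or the annotation release.

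Genes at 0.5 FPKM or more in at least 3 libraries (13151 of 60612) were tested two-sided on log2(FPKM + 1) with limma 3.58.1 in R 4.3.3, using an intensity trend and no covariates, on all 6 libraries, and adjusted by Benjamini-Hochberg at 0.05. The limma step was tested on simulated data. Intervals are 95% limits of that fit. Positions, transcript lengths, exon overlaps and UTR sites come from GENCODE 29 (GRCh38); microRNA and promoter sequences from RefSeq (GRCh38.p14).

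Named in full are the 3 members with the smallest p in each direction, the highest and lowest member, NDUFA4, NDUFAB1, and 2 genes by smallest p from each other pathway list; NDUFA12, NDUFB1, NDUFB3, NDUFB4 and TWNK were added after their values were seen. One member is in all counts and medians but is not reported here by name. Members and lists were chosen with earlier results of these data known. Alternatives were a pseudocount of 0.1, no filter, median-of-ratios scaling, quantile normalization, a replicate block and leaving out each library, with transcript length centring and the summing of same-strand rows added after seeing the data.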

Additional observations from a re-analysis of the deposited data

How the results depend on the processing

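The count of called subunits was 0 under the deposited scaling and all 13 alternatives, as was that of the other pathway genes; over the subunits and alternatives the lowest adjusted p was 0.661 (limma). Of 38 members, 35 were positive; this was 31 with quantile normalization, 32 with length centring, 35 with the replicate block and 27 to 35 when a library was left out. The median of 0.18 ranged from 0.09 to 0.32 when a library was left out, and was 0.11 with length centring, 0.13 with quantile normalization and 0.18 with the replicate block. Of 494 member values under alternatives, 38 had the other sign, spread over 15 members, while 23 members kept their sign in all. Members at an unadjusted p under 0.05 (limma) numbered 0 with no filter, median-of-ratios scaling, quantile normalization or summed same-strand rows, and 0 to 3 when a library was left out. With the replicate block they numbered 2, NDUFA7 (unadjusted p = 0.0434, limma) and NDUFA13 (unadjusted p = 0.0406, limma), with an adjusted p of 0.661 for each. NDUFA7 ranged from 0.58 to 1.24 when a library was left out. The cause of these shifts was not tested. Same-numbered libraries had correlations of deviations of 0.04, 0.55 and 0.52, and different-numbered ones from -0.62 to 0.32. The same-numbered values were not all over 0.1, so the main fit did not take the replicate numbers as pairs. Those of replicates 2 and 3 were nevertheless the highest of all. Whether same-numbered libraries were handled together was not tested. The SE of a member was 0.14 to 0.50, with a median of 0.22, so small differences were not detectable with 3 libraries a group.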
